A study of Mus musculus with 18 samples.

Results

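The SOCS feedback inhibitors of cytokine signalling were represented by 5 genes, Socs1, Socs2, Socs3, Cish and Socs5. Every probe set whose chip annotation named 1 of them as its only gene symbol was taken, which gave 11 probe sets of the 36701 that are not controls. The U74Av2 chip carried 6 of these, the U74Bv2 chip 5 and the U74Cv2 chip 0. Gene expression was measured in mouse FVB/N embryonic stem (ES) cells with the 3 chips of the Affymetrix U74v2 set, with 3 dishes per group and 18 arrays in all. WT cells carried no transgene and were grown with LIF (leukaemia inhibitory factor) and without OHT (4-hydroxytamoxifen). STAT3-MER cells of 1 transgenic line were grown with OHT and without LIF, and carried a hemizygous transgene in which a chicken β-actin promoter drives STAT3 fused to a modified ligand-binding domain of the mouse estrogen receptor that OHT binds. Both lines had been established on mouse embryonic fibroblast feeder cells. Each group is 1 cell line, so the 3 dishes give the spread between cultures and not between lines. Genotype, LIF and OHT changed together between the groups, and their parts cannot be told apart.

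SOCS proteins are the negative feedback arm of the JAK-STAT pathway. A cytokine such as LIF brings together receptor chains with JAK kinases, which phosphorylate STAT factors, and the STATs then switch on SOCS genes whose products dampen the same signal. All SOCS proteins carry an SH2 domain that binds phosphotyrosine and a SOCS box that joins an E3 ubiquitin ligase with elongin B, elongin C and a cullin. SOCS1 and SOCS3 can also inhibit the JAK kinase directly, and SOCS3 docks on gp130, the receptor chain that LIF shares with interleukin-6, so that Socs3 is both a target and a brake of STAT3 in ES cells. CISH and SOCS2 are best known as inhibitors of growth hormone and related receptors that act through STAT5, and SOCS5 as an inhibitor of epidermal growth factor and interleukin-4 receptors.

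STAT factors bind palindromes of the form TTCNNNGAA, where N is any base, so the promoter windows of members that hold this motif are shown here. The sequences are those of RefSeq on GRCm38.p6, from 250 bases before to 50 bases after the annotated start, written 5′ to 3′ on the strand of the gene, with the motif in capitals. The motif equals its own reverse complement, so a search of 1 strand covers both. Windows were on hand for 3 of the 5 members, Socs1, Socs3 and Cish, and the table used here has no entry for Socs2 or Socs5.
Socs3 promoter, chr11:117969317-117969616, minus strand: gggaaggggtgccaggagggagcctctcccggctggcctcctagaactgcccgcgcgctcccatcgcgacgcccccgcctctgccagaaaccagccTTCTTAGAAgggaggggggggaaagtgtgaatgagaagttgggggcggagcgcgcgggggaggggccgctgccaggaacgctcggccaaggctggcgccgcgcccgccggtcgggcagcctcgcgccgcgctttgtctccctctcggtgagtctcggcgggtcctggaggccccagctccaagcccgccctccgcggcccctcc
Cish promoter, chr9:107296409-107296708, plus strand: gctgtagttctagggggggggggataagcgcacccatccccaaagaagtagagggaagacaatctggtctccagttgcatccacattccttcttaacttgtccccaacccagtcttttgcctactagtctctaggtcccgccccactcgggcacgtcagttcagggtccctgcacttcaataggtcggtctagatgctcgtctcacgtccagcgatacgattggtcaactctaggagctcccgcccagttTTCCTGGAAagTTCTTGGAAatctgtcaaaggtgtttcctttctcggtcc
The Socs3 window held 1 match, TTCTTAGAA, whose first base lies at -154 from the start. The annotated start used for this window lies inside the span of the gene as given below. Cish held 2 matches, TTCCTGGAA from position 1 and TTCTTGGAA from position 12, and the Socs1 window at chr16:10785487-10785786 on the minus strand held 0. Of 32851 mouse promoter windows of this length, 8.30% held at least 1 match and 0.457% held 2 or more. A match describes letters in the window and says nothing about whether a STAT factor was bound in these cells.

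Signals are linear intensities in arbitrary units, 1 per probe set and array, and depend on the probes, so that each probe set is compared only with itself. As a gauge of background, the highest of the 15 probe sets for Bacillus subtilis genes was taken on each array, which ranged from 27.4 to 101 on U74Av2 and from 110.1 to 501 on U74Bv2. Of the 11 SOCS probe sets, 7 were above this gauge on all 6 arrays of their chip and 4 were not. The transgene was visible in the data. The Esr1 (estrogen receptor) probe set 93945_at gave 40.3, 19.7 and 9.25 in WT, against 25849, 25567 and 31549 in STAT3-MER dishes, a log2 fold change of 9.01 ± 0.24 (SE, adjusted p = 7.58e-06, limma), and was the only probe set on the 3 chips past the threshold of 0.05. Means of the other Esr1 probe sets lay between 18.4 and 129.8 in both groups, with log2 fold changes from -0.68 to 0.38. Which of them read the part carried by the transgene was not tested. ES cell markers were clearly present: 8 of the 9 listed (among them Pou5f1, Nanog and Sox2, but not the U74Av2 probe set of Esrrb) were above the controls on every U74Av2 array, with summed signals of 55135 to 81633 in WT and 59680 to 70494 in STAT3-MER dishes. Markers of primitive endoderm summed to 685 to 1747 over the WT dishes and 807 to 1235 over the STAT3-MER dishes with 4 of 7 genes above the controls on all arrays, those of trophectoderm to 799 to 1829 and 561 to 1183 with 1 of 6, and those of blood cells to 219 to 331 and 252 to 282 with 1 of 4. Feeder fibroblast markers are given beside Socs3 and Socs2.

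Socs3, at chr11:117966079-117970336 (GRCm38.p6), was the member that stood apart between the groups, and it did so on both of its U74Av2 probe sets. Probe set 92232_at gave signals of 507, 75.8 and 147 in WT dishes 1 to 3, against 585, 2073 and 924 in STAT3-MER dishes 1 to 3. The lowest STAT3-MER dish lay above the highest WT dish, by a narrow margin, while WT dish 2 was at the level of the bacterial controls of its array (78.1). Mean signals were 243 ± 231 for WT and 1194 ± 780 for STAT3-MER (SD, n = 3 each), a ratio of 4.91.
Probe set 162206_f_at, whose suffix marks possible cross-hybridization within a gene family, gave 1593, 546 and 642 in WT, against 1687, 5915 and 2276 in STAT3-MER dishes. Again WT dish 1 was close to STAT3-MER dish 1, and STAT3-MER dish 2 was far above all others. Mean signals were 927 ± 579 and 3293 ± 2290 (SD, n = 3 each), a ratio of 3.55.

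On the scale of log2(signal + 32), which understates changes of dim probe sets, Socs3 differed by 2.30 ± 0.63 (SE, 95% confidence interval 0.85 to 3.75) for 92232_at and by 1.74 ± 0.52 (0.54 to 2.94) for 162206_f_at. Unadjusted limma p-values were 0.00638 and 0.0102. After Benjamini-Hochberg adjustment over all 36701 probe sets neither was called (adjusted p = 1.00 for both, limma). An exact permutation test of the dishes gave p = 0.1 for each, two-sided, the smallest value that 3 dishes against 3 can give. The size of the ratio depended on 2 dishes: for 92232_at it was 3.10 without STAT3-MER dish 2 and 10.7 without WT dish 1, and for 162206_f_at 2.14 and 5.54. Both probe sets read the same gene in the same RNA and do not count as separate evidence. The study itself listed Socs3 among the genes raised on these arrays, so the direction seen here is not independent of that choice. The data are of whole dishes, in which more cells with Socs3 RNA and more RNA per cell cannot be told apart.

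A further Socs3 probe set, 111736_at on U74Bv2, gave 173, 166 and 116 in WT, against 147, 119.9 and 343 in STAT3-MER dishes. None of the 3 WT arrays and 2 of the 3 STAT3-MER arrays were above the controls, and the groups overlapped. That count depends on the gauge, which was 261, 501 and 337 in WT, against 279, 110.1 and 196 in STAT3-MER dishes. STAT3-MER dish 2 thus counted as above and WT dish 1 did not, though the signal of WT dish 1 was higher. The median control was 32.3 to 49.9 on U74Bv2, below all signals of this probe set. With the WT signals not above the highest control, no ratio is given. Its fitted difference on the log2 scale, plotted with the others, was 0.25 ± 0.47 (SE, interval -0.80 to 1.31). This Socs3 probe set thus showed no difference beyond the spread between dishes.

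**Figure D1:**
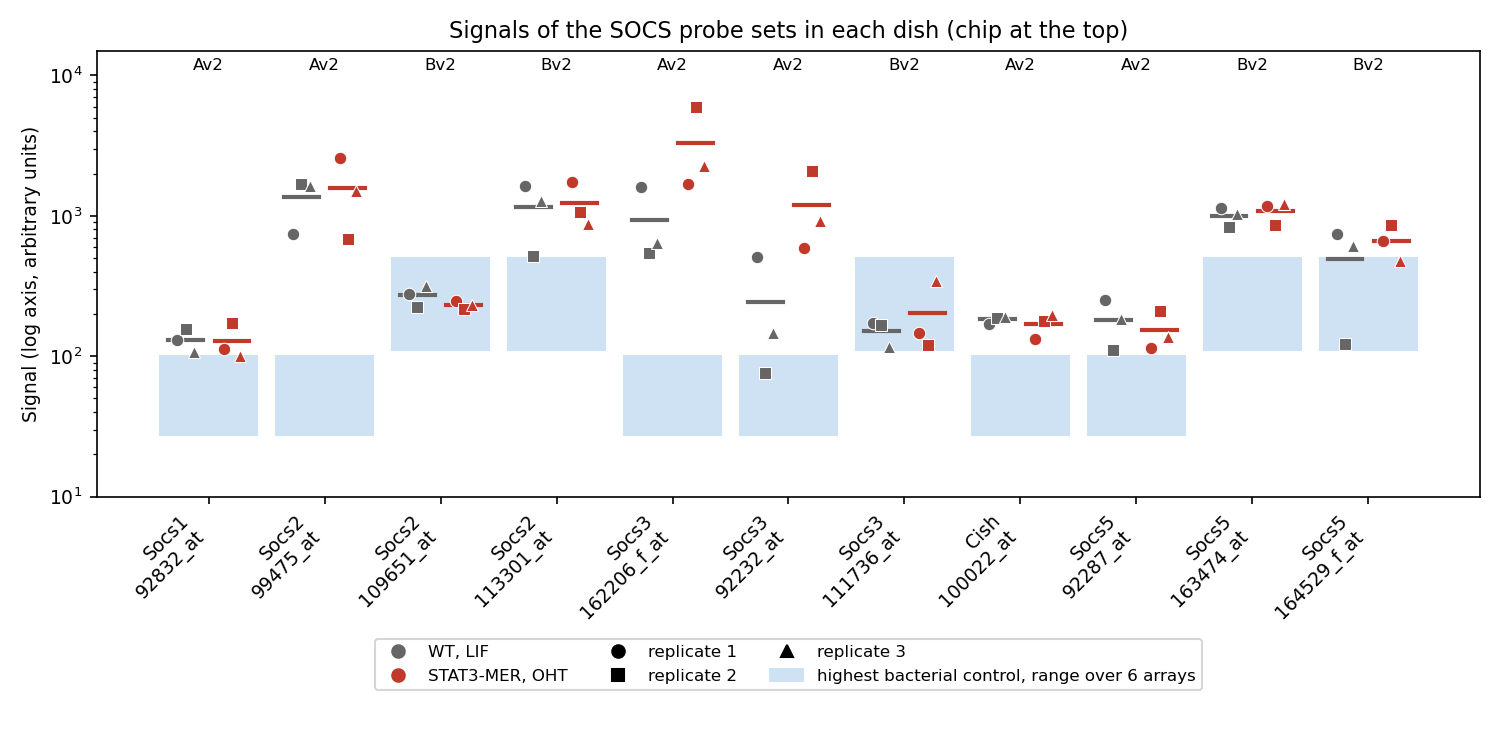
Signal of each SOCS probe set (log axis, arbitrary units) for 3 dishes per group (WT grey, STAT3-MER red), with the group mean as a line and the replicate number as the shape. Blue boxes span the highest bacterial control signal over the 6 arrays of the chip, 27.4 to 101 on U74Av2 and 110.1 to 501 on U74Bv2. The groups separate only for Socs3 92232_at and 162206_f_at.

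Socs2, at chr10:95383903-95417321, did not differ beyond the spread between dishes on any of its 3 probe sets. On U74Av2, 99475_at gave 737, 1684 and 1644 in WT, against 2563, 685.9 and 1500.5 in STAT3-MER dishes. The highest and the lowest dish were both STAT3-MER, so the groups overlapped fully. Means were 1355 ± 535 and 1583 ± 941 (SD, n = 3 each), and the log2 fold change was 0.12 ± 0.49 (SE, interval -0.9998 to 1.25).
On U74Bv2, 113301_at gave 1643, 519 and 1278 in WT, against 1731, 1073 and 879 in STAT3-MER dishes. WT dish 2 was the low one here, and the log2 fold change was 0.19 ± 0.41 (SE, interval -0.74 to 1.11). The dim probe set 109651_at lay between 215.5 and 314 in all 6 dishes, above the controls on 3 of them, with a log2 fold change of -0.20 ± 0.36 (SE, interval -0.99 to 0.60). These intervals leave room for a change of either sign.

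Socs1 and Cish had nearly equal means in the groups. Socs1, at chr16:10783808-10785536, gave 131, 156 and 107 in WT, against 112, 172 and 99.5 in STAT3-MER dishes (92832_at). The highest and the lowest dish were both STAT3-MER. The log2 fold change was -0.044 ± 0.30 (SE, interval -0.73 to 0.64).
Cish, at chr9:107296659-107302784, gave 169.97, 188 and 191 in WT, against 133, 179 and 196 in STAT3-MER dishes (100022_at). It was the steadiest U74Av2 member among WT dishes, which spanned 1.12-fold, against 1.48-fold among STAT3-MER dishes. The log2 fold change was -0.11 ± 0.26 (SE, interval -0.71 to 0.50). For both genes, all 6 arrays were above the controls. The promoter windows above hold 2 matches of the motif for Cish and 0 for Socs1.

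Socs5, at chr17:87107278-87137647, was read by 3 probe sets. The brightest, 163474_at on U74Bv2, gave 1139, 837 and 1025 in WT, against 1178, 861 and 1206 in STAT3-MER dishes. Dish 2 was the lowest of both groups. Means of 1000.4 ± 152 and 1082 ± 192 (SD, n = 3 each) and a log2 fold change of 0.10 ± 0.24 (SE, interval -0.44 to 0.65) made this the narrowest interval of all members.
Probe set 164529_f_at, also on U74Bv2, gave 738, 123 and 605 in WT, against 663, 859 and 473 in STAT3-MER dishes. WT dish 2 alone was low and was not above the controls of its array (501), and the log2 fold change of 0.68 ± 0.55 (SE, interval -0.56 to 1.92) turned to -0.045 without it. On U74Av2, 92287_at gave 252, 109.8 and 184 in WT, against 115, 210.2 and 137 in STAT3-MER dishes, a log2 fold change of -0.18 ± 0.35 (SE, interval -0.99 to 0.63).

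**Figure D2:**
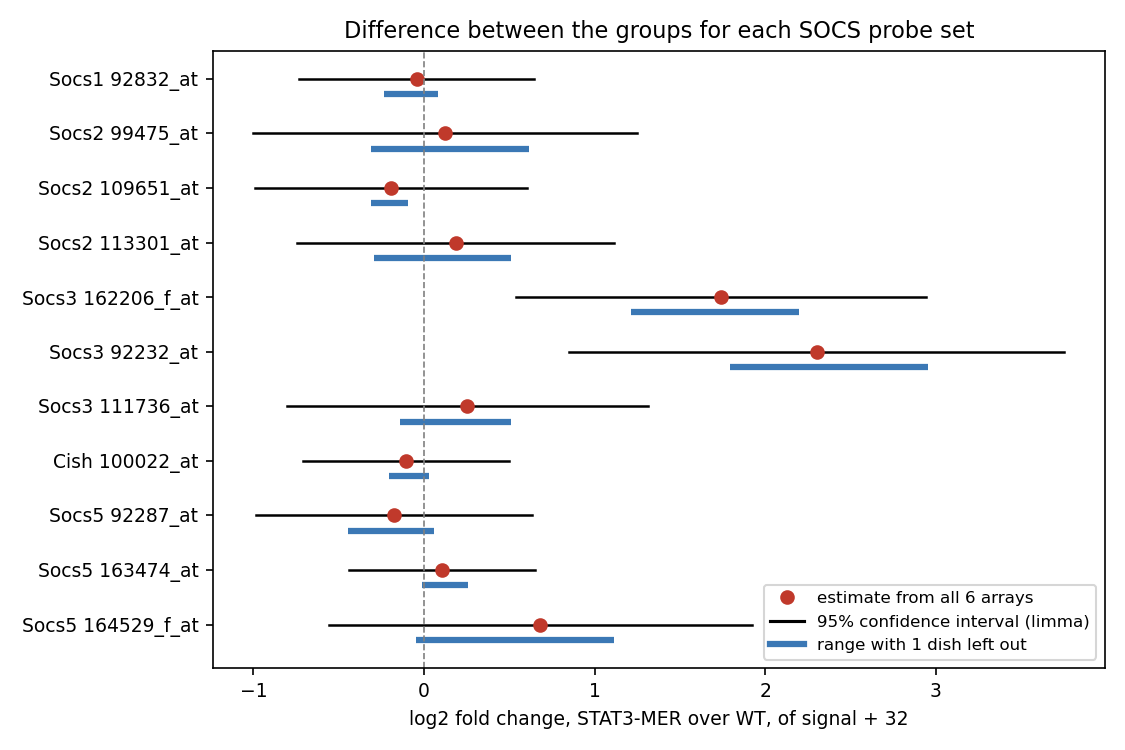
Log2 fold change of STAT3-MER over WT, on log2(signal + 32), for the 11 SOCS probe sets. Points are limma estimates from 6 arrays, black lines their 95% confidence intervals and blue bars the range of the estimate with each dish left out in turn. Only the intervals of Socs3 162206_f_at (0.54 to 2.94) and 92232_at (0.85 to 3.75) lie apart from 0.

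Of the 11 probe sets, limma called 0 higher and 0 lower at an adjusted p under 0.05, where it called 0.00272% and 0% of all probe sets. At an unadjusted p under 0.05 there were 2, both of Socs3, against 3.45% of all probe sets. The study's own criteria (a ratio of means over 1.5, a difference over 100 and p under 0.1 in the methods' t-test), applied to the deposited signals, took 0 SOCS probe sets in either direction, against 1.1% of all probe sets higher and 0.872% lower. Socs3 passed the ratio and the difference but not the p, which was 0.161 for 92232_at and 0.211 for 162206_f_at by the methods' t-test. The study applied its criteria to dChip values, which were not used here. It listed Socs3 92232_at as raised by them and also reported a rise by real-time PCR, both with folds smaller than the ratio of 4.91 here. The count here is thus no test of that listing. With that test on log2 signals in place of linear ones, both passed, so that 2 of 11 SOCS probe sets were higher and 0 lower, against 1.13% and 0.965% of all probe sets. Signals of the groups did not overlap for 2 of 11, both Socs3 and both higher in STAT3-MER, and for 0 in the lower direction, against 4.5% and 3.63% of all probe sets. Estimates were positive for 7 and negative for 4, with a median log2 fold change of 0.12 against 0.0094 over all probe sets. With each dish left out in turn, 3 of the 11 kept their sign throughout, namely Socs3 92232_at and 162206_f_at and the dim Socs2 109651_at.

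Socs3 and Socs2 varied within each group in opposite orders on U74Av2. These orders went with the summed signals of feeder fibroblast genes, with near ties in WT. Socs3 162206_f_at ran from dish 1 through 3 to 2 in WT and from dish 2 through 3 to 1 in STAT3-MER cells, highest first, and 92232_at had the same order. Socs2 99475_at had the reverse order in both groups, with WT dishes 2 and 3 close to each other (1684 and 1644).
The feeder list had 15 genes, among them Col1a2 (a collagen chain), Dcn (decorin) and Acta2 (smooth muscle actin). U74Av2 measured 14 of them, and 13 were above the controls on all 6 arrays. Their summed signals were 46292, 19508 and 45754 in WT, against 12007, 51269 and 37454 in STAT3-MER dishes. WT dish 2 and STAT3-MER dish 1 held least, and the order within each group was that of Socs3. The sums of WT dishes 1 and 3 were nearly equal, while Socs3 162206_f_at gave 1593 and 642 there. The order of those 2 dishes therefore carries little weight. The group ranges of the sum overlapped. With the log2 of this sum as a covariate, added after the data were seen, the Socs3 differences were 2.55 ± 0.44 (SE, 92232_at) and 1.94 (162206_f_at). Without it they were 2.30 and 1.74. Socs2 99475_at went from 0.12 to -0.070. The part of feeder cells in the Socs3 difference was not tested. An adjusted p under 0.05 was not reached (limma).

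Signs of RNA quality also moved with a dish. The ratio of 3′ to 5′ signal of the Gapdh control probe sets, which rises as RNA gets shorter, was 15.3, 10.2 and 9.52 in WT, against 9.06, 10.6 and 9.45 in STAT3-MER dishes on U74Av2. WT dish 1, where Socs3 was highest among WT, therefore had the highest ratio. With this ratio as a covariate, likewise added later, the Socs3 differences were 3.08 ± 0.41 (SE, 92232_at, unadjusted p = 0.000121 and adjusted p = 0.978, limma) and 2.36 (162206_f_at). Only WT dish 1 stood apart in the Gapdh ratio, so the fit cannot tell RNA length from other traits of that dish. With WT dish 1 left out instead, the differences were 2.95 (92232_at) and 2.20 (162206_f_at). The same ratio for the Actb (β-actin) control was 7.81, 4.69 and 5.95 in WT, against 5.03, 5.45 and 5.07 in STAT3-MER dishes. Its order within each group was that of Socs3, with a near tie of STAT3-MER dishes 1 and 3. Gapdh had the Socs3 order within STAT3-MER but not within WT. The Actb ratio was not used as a covariate, and the part of RNA length in the Socs3 order was not tested.
On U74Bv2 the highest Gapdh ratio was that of WT dish 2 (20.0, against 7.38 to 9.90 in the others), the array on which Socs2 113301_at and Socs5 164529_f_at were low. The WT numbers 1 and 2 may therefore not name the same dishes on the different chips, and values of different chips were not joined by number. The part of RNA length in the low signals of that array was not tested.

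**Figure D3:**
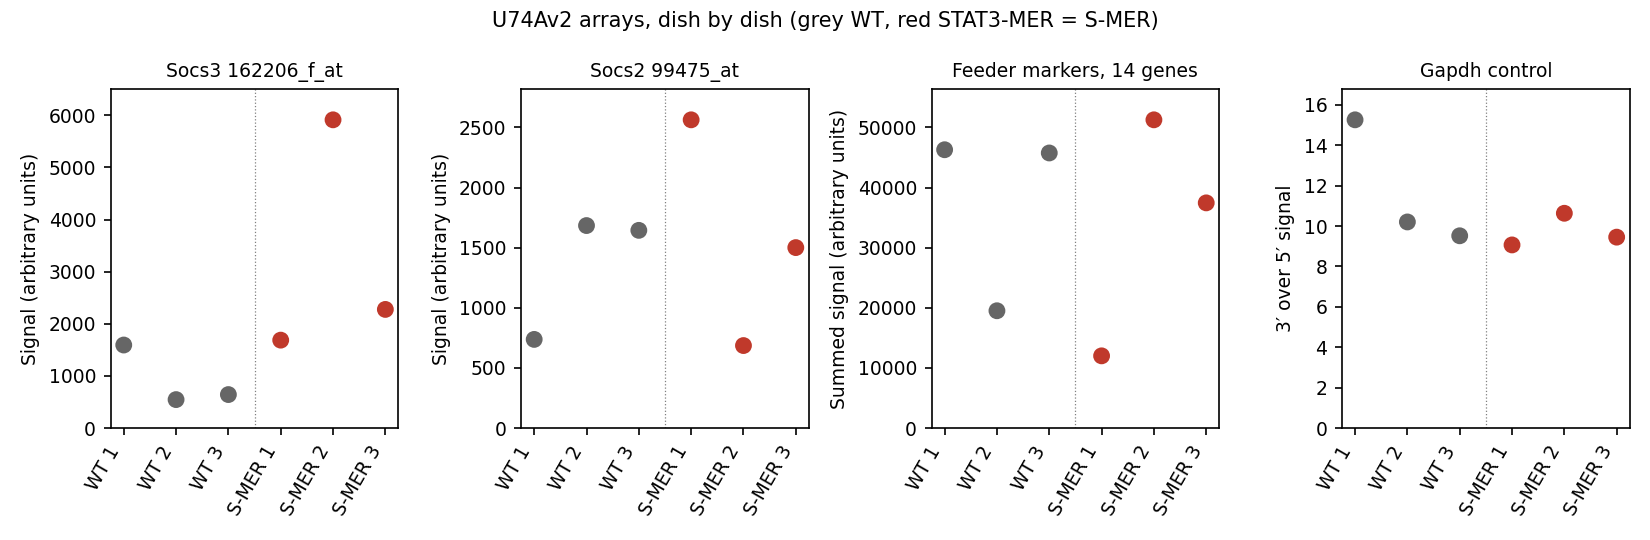
Socs3 162206_f_at and Socs2 99475_at signals, the summed signal of 14 feeder fibroblast genes and the 3′ over 5′ ratio of Gapdh on each U74Av2 array (grey WT, red STAT3-MER, linear axes from 0). Within each group Socs3 follows the order of the feeder sum and Socs2 the reverse order, and WT dish 1 has the highest Gapdh ratio, 15.3.

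Around the SOCS genes, 7 lists of pathway genes were compared, with 82 genes listed, 73 measured and 1 probe set per gene. Limma called 0 of the 73 at an adjusted p under 0.05, against 0.00626% of the 15964 genes with 1 probe set each. At an unadjusted p under 0.05 there was 1 of 73, against 2.93% of all these genes, so the count of pathway genes is no higher than the background. That gene was Bcl3, an IκB-family coactivator and known STAT3 target, at 239, 168 and 330.04 in WT, against 1004, 979 and 1814 in STAT3-MER dishes. Each STAT3-MER dish was far above each WT dish, and the log2 fold change of 2.21 ± 0.32 (SE) had an unadjusted p of 0.000115 and an adjusted p of 0.601 (limma).
Among all 18 measured genes that STAT3 is known to induce, the median log2 fold change was 0.13, against 0.0040 over all genes. Of these 18, 3 were higher in STAT3-MER without overlap between dishes and 1 was lower, where 4.02% and 3.5% of all genes were. The 3 were Bcl3, the kinase Pim3 (0.36 ± 0.18, SE) and the transcription factor Cebpb (0.47 ± 0.24), and the lower one was the survival gene Mcl1 (-0.44 ± 0.23). None of Pim3, Cebpb and Mcl1 passed the test. Klf5, a pluripotency factor that came next to Bcl3 by p, overlapped between the groups (0.55 ± 0.26).

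The receptor chains, kinases and STATs upstream of the SOCS genes showed no call. Of 13 LIF and interleukin-6 family ligands and receptors 9 were measured, and 5 of these were above the controls on all 6 arrays. The median log2 fold change of the 9 was 0.027, with the dim genes, whose changes this scale understates, included. The LIF receptor gene Lifr gave 325 ± 83.4 for WT and 404 ± 81.9 for STAT3-MER (SD, n = 3 each). Cntfr was first by p but was dim, at 41.5 ± 16.3 and 20.0 ± 9.89. For the 10 of 11 JAK kinases and STAT factors measured, 8 of them above the controls on all 6 arrays, the median was 0.11.
Jak3 was the exception among these in that its dishes did not overlap (517, 563 and 425 against 566, 708 and 1393, log2 fold change 0.69 ± 0.33, SE), by a margin of a few units at its closest. Stat3 itself, read by 99099_at, gave 819 ± 17.4 for WT and 925 ± 293 for STAT3-MER, 0.12 ± 0.25 on the log2 scale, and 99100_at on the same chip gave 626 ± 238 and 902 ± 321, a difference of 0.51 ± 0.32 (SE). Further Stat3 probe sets on U74Cv2, 140431_g_at and 140432_r_at, were dim, with WT means of 300 and 100.4. Their differences were 0.19 ± 0.67 and -0.24 ± 0.56 (SE). Whether the Stat3 probe sets also read the STAT3 part of the transgene was not tested, so they do not gauge its RNA. Stat6 was at 0.42 ± 0.30 and overlapped between the groups.

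Among partners and other brakes of the pathway no gene was called either. The E3 ligase partners of the SOCS box had 5 of 6 genes measured and a median of -0.060, with the RING protein gene Rnf7 at 0.40 ± 0.27 and elongin B (Elob) at -0.33 ± 0.32 (SE). Other receptors that SOCS proteins act on had 16 of 19 measured, but only 5 of these were above the controls on all 6 arrays. The median of the 16 was -0.039 and is mostly of dim genes, so it does not show that they were unchanged. Kit was at 0.55 ± 0.51. The interferon receptor gene Ifngr2 came first by p in this list but was below the highest bacterial control on all 3 STAT3-MER arrays (46.7 ± 27.6 for WT and 22.5 ± 6.62 for STAT3-MER), so no fold is given. Other inhibitors of JAK-STAT signalling had 12 of 12 measured, 8 of them above the controls on all 6 arrays. Their median was -0.00037, with the ubiquitin ligase gene Cblb at 0.28 ± 0.30. The phosphatase gene Ptprc came first by p in that list but was below the highest bacterial control on all 6 arrays (4.02 ± 1.69 for WT and 19.2 ± 26.2 for STAT3-MER), so no fold is given.
The remaining genes of the SOCS family, Socs4, Socs6 and Socs7, had 9 probe sets, all on U74Bv2. In the lists they had log2 fold changes of -0.11 to 0.20, with Socs6 163948_at at 1989 ± 640 for WT and 2273 ± 565 for STAT3-MER and Socs7 115169_at at 1976 ± 342 and 2160 ± 449 (SD, n = 3 each). One further Socs4 probe set, 113429_at, did not overlap between groups (19.5, 23.1 and 25.5 against 129, 106 and 88.6), but it was below the highest bacterial control on all 6 arrays, so no fold is given for it.

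**Figure D4:**
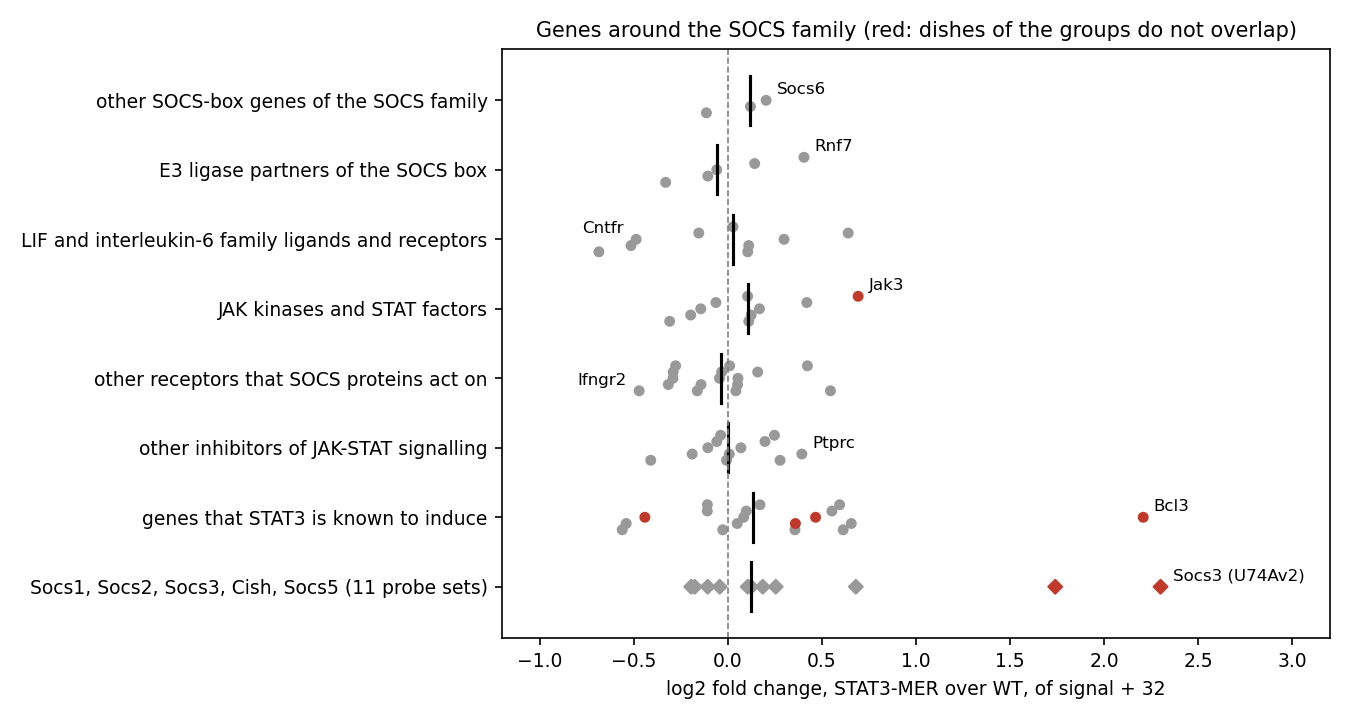
Log2 fold change of STAT3-MER over WT for the genes of 7 pathway lists (1 point per gene, 73 measured) and for the 11 SOCS probe sets (diamonds), with the median of each row as a black line. Red points are genes or probe sets whose dishes do not overlap between the groups. Dim genes and probe sets that were not above the controls on all arrays are included in the points and medians. The first gene by p of each list is named, and Bcl3 (2.21) lies nearest to the U74Av2 probe sets of Socs3 (1.74 and 2.30).

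The genes most alike to each member over the 6 arrays of its chip were taken as a description, with the arrays of both groups together and no test. Likeness is Pearson's r of log2(signal + 32) over probe sets with a mean signal of at least 200. Socs3 162206_f_at was most like Mars1 (a methionine-tRNA synthetase, r = 0.985), Caml (r = 0.981) and Smad7 (an inhibitor of TGF-β signalling, r = 0.973) among 5032 probe sets. Smad7 gave 680.1, 611 and 579 in WT, against 738, 961 and 746 in STAT3-MER dishes, so its range was much smaller than that of Socs3. Its dishes did not overlap between the groups, while those of Mars1 and Caml did (Caml 412 in WT dish 1, 390 in STAT3-MER dish 1). Genes picked for likeness over both groups tend to share the group difference of Socs3, so this adds no support to it.
Socs2 99475_at was most like Dcaf1 (r = 0.995), Mtdh (r = 0.992) and Pla2g7 (r = 0.992). Pla2g7, which encodes a secreted phospholipase, gave 82.4, 279 and 292 in WT, against 436, 63.3 and 203 in STAT3-MER dishes, with the low dishes being those where Socs2 was low. Cish was most like Tapbp, Asb3 and Ccne1 (r = 0.981, 0.970 and 0.968), Socs1 like Krt32, Defa23 and Ubap2l (r = 0.980, 0.976 and 0.975) and Socs5 163474_at like Cdyl, Bend3 and Jmjd1c (r = 0.996, 0.990 and 0.988). The highest r was at least 0.980 for each of the 5 members, whether its groups overlapped or not, and the arrays also differ in feeder signal and RNA quality as given above.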

How the data were processed

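RNA of 3 WT and 3 STAT3-MER dishes was amplified in successive rounds, labelled and hybridized to U74Av2, U74Bv2 and U74Cv2 chips. The authors deposited 1 linear intensity per probe set and array, without detection calls. As software, MAS5 is listed without a version in the submitters' processing notes. The published lists rest on dChip models, whose values were not used. All columns belong to samples. Amplification from an oligo-dT primer favours 3′ ends, so that signals of probes far from the 3′ end depend on RNA length.

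Arrays of a chip were brought to a common trimmed mean (2% off per side), and log2(signal + 32) was compared by limma 3.58.1 in R 4.3.3 (lmFit, then eBayes with a trend, for each chip apart, two-sided). Benjamini-Hochberg adjustment ran over 36701 probe sets, after 198 controls were left out, with a threshold of 0.05 and no filter on dim probe sets. P-values measure only the spread between dishes of 1 line per group. The number of arrays limits the precision. Scripts were tested on simulated data. Exact permutation tests used scipy 1.17.1, and the methods' t-test, whose form is not given in the paper, allowed unequal variances. Figures used matplotlib 3.10.9.

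Gene symbols came from the chip annotation, updated through RefSeq genes of GRCm38.p6, and pathway lists used 1 probe set per gene, preferring those without a suffix of possible cross-hybridization and then the brightest. The members, lists and tests were chosen with earlier results of these data known. Named were all member probe sets, the 2 genes of each list with the smallest p, the 3 probe sets most alike to the brightest probe set of each member, and the transgene. Pim3, Cebpb, Mcl1, Esr1, Stat3, Gchfr, Socs4 and the feeder genes named fall outside this rule and were picked with their values in view. Actb, a control gene, gave 6817 ± 3462 for WT and 5079 ± 663 for STAT3-MER (SD, n = 3 each, 101578_f_at). The STAT3-MER array of U74Av2 whose title lacks a number was taken as replicate 2. Alternatives were quantile and median scaling, signals as deposited, pseudocounts of 8 and 100, a filter at a mean signal of 100, eBayes without a trend, a replicate block, adjustment per chip, leaving out each dish, a ratio of 2, equal variances or log2 signals in the methods' t-test, and 2 covariates added after seeing the data.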

Additional observations from a re-analysis of the deposited data

How the results depend on the processing

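Of 116 log2 fold changes of SOCS probe sets under settings that kept all dishes, 5 changed sign, each under a covariate added after seeing the data. With the Gapdh ratio as a covariate, Socs1 went to 0.034, Socs2 99475_at to -0.42, Socs2 113301_at to -0.10 and Socs5 92287_at to 0.10, and with the feeder sum Socs2 99475_at went to -0.070. Their values without a covariate were within 1 SE of 0, and the cause was not tested. Adjusted p-values of all SOCS probe sets lay between 0.978 and 1.00 under every setting run (limma), and 0 SOCS probe sets and 0 pathway genes were called under any of them (with the feeder sum, over U74Av2 alone).

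With each dish left out in turn, estimates ran from -0.23 to 0.084 for Socs1, -0.31 to 0.61 for Socs2 99475_at, -0.31 to -0.096 for 109651_at, -0.29 to 0.51 for 113301_at, 1.79 to 2.95 for Socs3 92232_at, 1.21 to 2.20 for 162206_f_at, -0.14 to 0.51 for 111736_at, -0.20 to 0.031 for Cish, -0.44 to 0.057 for Socs5 92287_at, -0.014 to 0.26 for 163474_at and -0.045 to 1.11 for 164529_f_at. Over all probe sets, 1 was called higher in the main comparison and 1 to 2 with a dish left out. The second was Gchfr 168197_r_at on U74Cv2, called without WT replicate 3 (adjusted p = 0.0249, limma). With the methods' t-test on log2 signals in place of linear ones, 2 SOCS probe sets passed the study's criteria, Socs3 92232_at and 162206_f_at, against 0 with linear signals. Over all probe sets these were 416 higher and 354 lower, against 405 and 320.

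Same-numbered arrays deviated together on U74Bv2 (r = 0.18, 0.21 and 0.13), and each array there and on U74Cv2 (r = 0.11, 0.13 and 0.070) was most like the other group's array of its own number. On U74Av2 same-numbered arrays gave r = -0.30, -0.33 and 0.29, while WT 1 was most like STAT3-MER 2 (r = 0.46) and WT 2 most like STAT3-MER 1 (r = 0.41). The labels tie no numbers to a shared day or batch, so no pairing other than by number was fitted, and a block by number does not take up what those U74Av2 arrays share. With a replicate block, limma called 1 probe set higher, 0 lower and 0 SOCS probe sets, as without it, and the Socs3 estimates were 2.30 and 1.74. Without detection calls, the dim probe sets Socs3 111736_at and Socs2 109651_at gave little beyond the highest bacterial controls. The exact permutation test cannot go below 0.1 with 3 dishes per group.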
